A study of Homo sapiens with 8 samples.

Results

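The replication-dependent histone genes encode the core and linker histones that package newly made DNA. The 70 genes described here were chosen by symbol from 20037 RefSeq protein-coding genes of GRCh38.p14 on the autosomes, X and Y. They are the linker histone genes *H1-1* to *H1-6* (6 genes) and the genes whose symbols begin with *H2AC* (17 genes), *H2BC* (19 genes), *H3C* (13 genes) or *H4C* (15 genes). H3K27ac, an acetylation of histone H3 found at active promoters and enhancers, was measured by ChIP-sequencing with 2 samples for each of the lines MP2_HDAC1_OE and MP2_NTC, beside 2 samples per line made without an antibody. Both are stable lines of MIA PaCa-2, a human pancreatic cancer cell line, and both carry the CRISPRa plasmids lentiMPHv2 and lentiSAMv2, which recruit a transcriptional activator to the site of the sgRNA. The sgRNA targets *HDAC1*, a histone deacetylase gene, in MP2_HDAC1_OE and is a non-targeting control in MP2_NTC. Each condition is 1 line, and the authors deposited 1 list of reproducible peaks per line, so the lists have no replicates, no test across cultures was possible, and an effect of the sgRNA cannot be told apart from other differences between the lines or libraries.

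The genes of this family are transcribed in S phase and supply histones for the replicating genome. Most of their transcripts end in a stem-loop bound by SLBP in place of a poly(A) tail. The large clusters are held in histone locus bodies, nuclear structures built around NPAT, the cyclin E and CDK2 substrate that activates histone transcription. Many H2A and H2B genes lie head to head and share the DNA between their starts as a promoter.

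Of the 70 genes, 34 lie in the larger chromosome 6 cluster, from *H2AC1* to *H4C8* (chr6:25726063-26285534). Another 21 lie in the second chromosome 6 cluster, from *H2BC11* to *H2BC17* (chr6:27132316-27893891). The chromosome 1 cluster, from *H2BC18* to *H2AC21*, holds 11 genes (chr1:149782689-149887965), and 4 genes lie elsewhere (*H2AC25* and *H2BC26* on chromosome 1, *H4C16* on chromosome 12 and *H2BC12L* on chromosome 21). RefSeq promoter entries matched 64 of the 70 genes. *H2AC12*, *H2BC12L*, *H3C11*, *H3C12*, *H4C1* and *H4C3* had none.

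Of these, 6 promoters are printed because they stand for the patterns below, each as the 200 bases before the annotated start, 5′ to 3′ on the strand of the gene. *H3C1* (chr6:26020251-26020450, plus strand) had the highest rank of the family in both lists. *H4C8* (chr6:26285535-26285734, minus strand) ranked far lower in MP2_HDAC1_OE. *H1-3* (chr6:26234988-26235187, minus strand) had a peak in MP2_NTC alone. *H2BC13* (chr6:27807930-27808129, minus strand) is in a head-to-head pair with its strongest peak on opposite sides in the lists. *H2BC9* (chr6:26251414-26251613, plus strand) and *H3C14* (chr1:149841209-149841408, minus strand) had no peak, and the latter has a near-identical copy. Capitals mark the TATA box (TATAAA), the CCAAT box (CCAAT), the octamer typical of H2B promoters (ATTTGCAT), the core of site II of H4 promoters (GGTCCG) and the H1 box (AAACACA), on either strand.
H3C1: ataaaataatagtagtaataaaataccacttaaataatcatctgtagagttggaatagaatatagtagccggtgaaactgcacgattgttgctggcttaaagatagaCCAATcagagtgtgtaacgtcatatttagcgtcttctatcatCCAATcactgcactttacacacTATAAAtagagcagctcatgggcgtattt
H4C8: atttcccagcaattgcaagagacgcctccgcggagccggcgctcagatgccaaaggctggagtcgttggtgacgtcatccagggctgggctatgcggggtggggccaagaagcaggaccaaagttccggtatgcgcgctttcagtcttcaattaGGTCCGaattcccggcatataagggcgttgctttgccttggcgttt
H1-3: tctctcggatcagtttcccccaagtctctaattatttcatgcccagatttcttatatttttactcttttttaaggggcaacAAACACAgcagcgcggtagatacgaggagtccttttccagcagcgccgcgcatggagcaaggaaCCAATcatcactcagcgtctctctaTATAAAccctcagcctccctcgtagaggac
H2BC13: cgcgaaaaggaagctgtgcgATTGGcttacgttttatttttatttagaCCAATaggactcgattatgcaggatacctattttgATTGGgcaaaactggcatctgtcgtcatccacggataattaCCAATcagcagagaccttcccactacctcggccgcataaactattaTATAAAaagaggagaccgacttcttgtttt
H2BC9: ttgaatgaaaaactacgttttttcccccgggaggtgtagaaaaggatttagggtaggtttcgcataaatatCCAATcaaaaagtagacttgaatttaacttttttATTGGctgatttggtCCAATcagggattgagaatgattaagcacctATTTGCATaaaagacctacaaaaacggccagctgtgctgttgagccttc
H3C14: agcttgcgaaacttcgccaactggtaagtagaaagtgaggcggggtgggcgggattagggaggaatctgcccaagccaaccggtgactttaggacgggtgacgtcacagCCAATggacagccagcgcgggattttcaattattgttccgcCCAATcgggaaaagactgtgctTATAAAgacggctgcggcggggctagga

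The motifs divided the family by the histone that each gene encodes. In these 200 bases the CCAAT box was present in every H1 (6 of 6), H2A (16 of 16), H2B (18 of 18) and H3 (11 of 11) promoter and in 3 of 13 H4 promoters, against 30.5% of all 15843 promoters. The site II core was in 12 of 13 H4 promoters, against 10.2% of all promoters, and in 1 promoter each of H2A, H2B and H3. The octamer, bound by the POU2F1 protein, was in 14 of 18 H2B promoters and in 7 of 16 H2A promoters, against 1.31% of all promoters. H2A and H2B genes that are head to head can share such a match. The H1 box was in 6 of 6 H1 promoters and in no other promoter of the family, against 2.77% of all promoters. The TATA box was in 37 of 64 family promoters (57.8%), against 7.59% of all promoters. Each motif was read on both strands and counted apart from the others, so matches of different motifs may overlap. The shares in promoters with and without an H3K27ac peak were set side by side and not tested. Those without a peak include 6 chromosome 1 promoters that have near-identical copies, described below. The TATA box was in 59.6% of 47 promoters of genes with a peak and 52.9% of 17 without, and the CCAAT box in 85.1% and 82.4%. The octamer was in 38.3% and 23.5%, which is 18 and 4 promoters. The site II core was in 21.3% and 29.4%, and the H1 box in 8.51% and 11.8%. A match is a description of the letters and not evidence of binding.

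The MP2_HDAC1_OE list holds 25045 peaks and the MP2_NTC list 22569 peaks, with a median width of 820 bp in both. The scaling of signal between the lists is not known, so each peak was given its rank, the percent of peaks in its own list with a lower signal. Where peaks of either list shared at least 1 bp they were merged into a region, which was shared when it held peaks of both lists and otherwise unique to a line. At *HDAC1*, the activated gene, the strongest peak had rank 93.9 in MP2_HDAC1_OE and 45.2 in MP2_NTC. Epithelial marker genes had peaks at 3 of 6 genes in each list (*KRT8*, *KRT18* and *KRT19*), with none at *EPCAM*, *KRT7* and *CDH1*. Mesenchymal markers had peaks at 2 of 4 genes in each list (*VIM* and *ZEB1*). Blood markers had none of 4 in MP2_HDAC1_OE and 1 of 4 in MP2_NTC (*CD14*), and endothelial markers 1 of 2 (*CDH5*) in each list. Depth is unknown, and the intervals below are 95% Wilson intervals that cover counting error alone. Family members share peaks with their neighbours and are not replicates.

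H3K27ac was common at the histone genes of both lines. Within 2 kb of the gene, 49 of 70 genes had an MP2_HDAC1_OE peak (70.0%, interval 58.5 to 79.5) and 52 had an MP2_NTC peak (74.3%, interval 63.0 to 83.1), against 47.9% and 47.0% of all protein-coding genes. A short gene has a smaller window, and of the 1257 protein-coding genes up to 2 kb long 18.6% and 18.4% had a peak. Peaks of both lists stood at 49 genes, against 41.7% of all genes. The MP2_NTC list alone had a peak at 3 genes (4.29%, against 5.30% of all genes), and the MP2_HDAC1_OE list alone at 0 of 70 (upper limit 5.20%, against 6.21% of all genes). The remaining 18 genes had no peak. These presence calls and ranks were known when the family was chosen, so they are a description and were not tested.

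**Figure D1:**
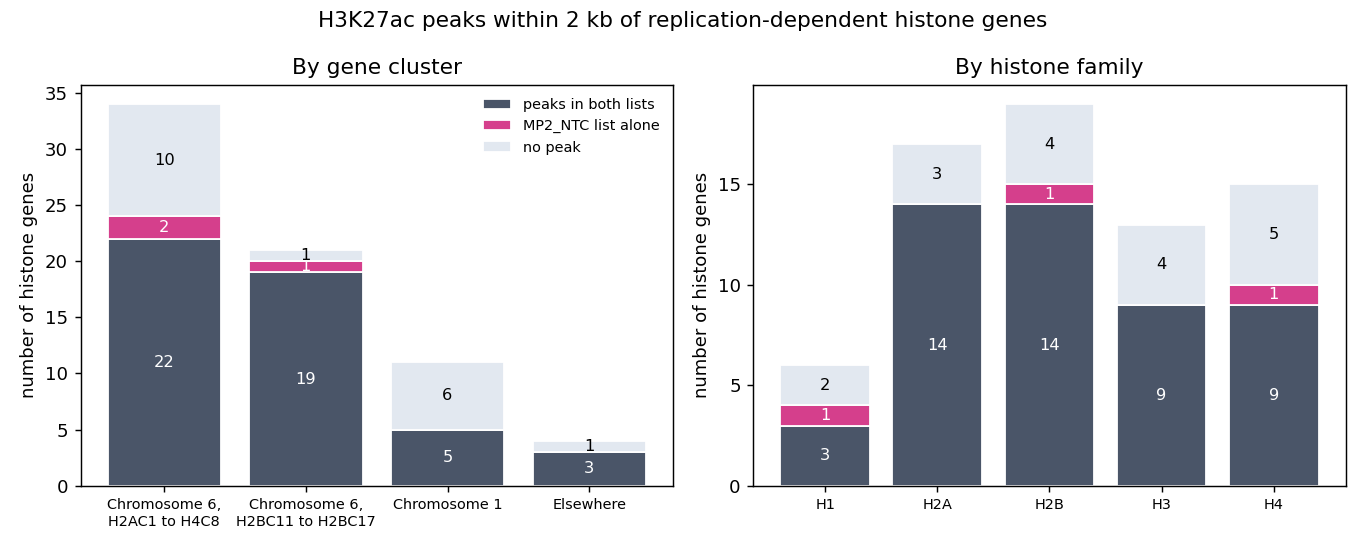
Number of replication-dependent histone genes (y axis) by gene cluster (left) and by histone family (right), stacked by whether the gene had H3K27ac peaks within 2 kb in both lists, in the MP2_NTC list alone or in neither. The second chromosome 6 cluster had peaks at 20 of 21 genes and the chromosome 1 cluster at 5 of 11, against 53.2% of all protein-coding genes. No histone gene had a peak in the MP2_HDAC1_OE list alone.

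The kind of region differed more than the presence of a peak. A shared region lay at 45 of 70 genes (64.3%), against 39.8% of all genes. A region unique to MP2_NTC lay at 34 genes (48.6%, interval 37.2 to 60.0), against 14.8% of all genes. A region unique to MP2_HDAC1_OE lay at 15 genes (21.4%, interval 13.4 to 32.4), against 16.8% of all genes. Of the 70 genes, 10 had a unique region of each kind (14.3%), against 4.66% of all genes. When single peaks had to overlap by 50% of both to count as shared, 45 genes had a peak unique to MP2_NTC (64.3%) and 31 a peak unique to MP2_HDAC1_OE (44.3%), against 29.7% and 32.0% of all genes.

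Because neighbours share peaks, the distinct peaks and regions were also counted. The 70 genes had 85 MP2_HDAC1_OE peaks and 120 MP2_NTC peaks (76 and 105 distinct intervals), although the MP2_HDAC1_OE list is the longer list. They covered 38.6 kb and 53.4 kb, and the median rank over these peaks was 53.3 and 57.1. Merged together they formed 75 regions, of which 37 were shared (49.3%), 10 were unique to MP2_HDAC1_OE (13.3%) and 28 were unique to MP2_NTC (37.3%). Of all 18678 regions in the lists 50.7% were shared, 28.6% were unique to MP2_HDAC1_OE and 20.7% were unique to MP2_NTC. Unique regions thus leaned to MP2_NTC at the histone genes and to MP2_HDAC1_OE in the lists as a whole. The 28 MP2_NTC regions had a median rank of 42.3 (range 5.47 to 95.9), and the 10 MP2_HDAC1_OE regions 58.5 (range 13.3 to 95.7). Over all unique regions the medians were 39.1 and 41.6.

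Regions nearby that were not at a histone gene did not lean as far. Between the first and the last chromosome 6 histone gene, 63 such regions were present, of which 15 were unique to MP2_HDAC1_OE (23.8%) and 16 to MP2_NTC (25.4%). Over the rest of chromosome 6, including that span, 281 of 1002 regions were unique to MP2_HDAC1_OE and 195 (19.5%) to MP2_NTC. At the chromosome 6 histone genes themselves these shares were 14.9% and 38.8% of 67 regions.

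**Figure D2:**
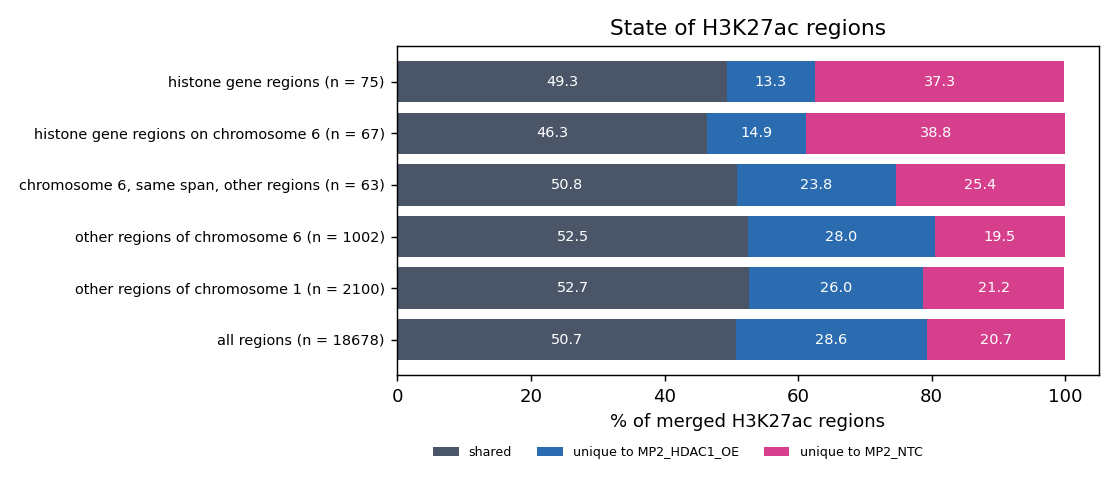
Percent of merged H3K27ac regions (x axis) that were shared, unique to MP2_HDAC1_OE or unique to MP2_NTC, for regions within 2 kb of the histone genes and for other sets of regions, with the number of regions beside each bar. Regions unique to MP2_NTC made up 37.3% at the histone genes and 20.7% of all regions.

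The shared regions leaned the same way. The rank of a region was taken from its strongest peak in each list. It was lower in MP2_HDAC1_OE than in MP2_NTC at 25 of 37 shared histone regions (67.6%), with a median difference of −7.26 rank points and a middle range (quartiles) of −22.9 to 2.01. Over all 9477 shared regions 45.3% were lower, with a median of 1.51. For the 32 shared regions in the chromosome 6 span that were not at a histone gene, 16 were lower and the median was 0.432. The difference was smaller when only the strongest peak of each gene was used, whatever its region. Over the 49 genes with peaks in both lists that median was −0.468 (range −54.3 to 10.3), with 27 genes below 0 (55.1%), against 1.36 and 44.9% of all 8355 genes with peaks in both lists. With peaks counted only where they overlapped the gene itself (0 kb), the median over shared regions was −0.468 and that over genes was 0.536. The median rank of the strongest peak was 83.4 in MP2_HDAC1_OE (49 genes) and 88.2 in MP2_NTC (52 genes), against 76.6 and 74.6 over all genes with a peak.

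By family, the median difference over shared regions was lowest at the H4 genes. Of the 12 shared regions at H4 genes 9 were lower in MP2_HDAC1_OE, with a median difference of −20.8. The widest gap of the family was in a region beside *H4C5* (chr6:26203609-26204495), with rank 8.93 in MP2_HDAC1_OE and 88.3 in MP2_NTC. A region near the outer edge of the 2 kb window of *H2BC17* (chr6:27895750-27896595) had ranks 4.55 and 74.8. One beside *H4C4* (chr6:26189506-26190682) had ranks 20.7 and 78.6. In each of these the MP2_NTC peak stood high in its list and the MP2_HDAC1_OE peak low. The widest gap the other way was at *H1-5* and *H2AC16* (chr6:27867006-27868165), with rank 77.3 in MP2_HDAC1_OE and 31.4 in MP2_NTC.

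**Figure D3:**
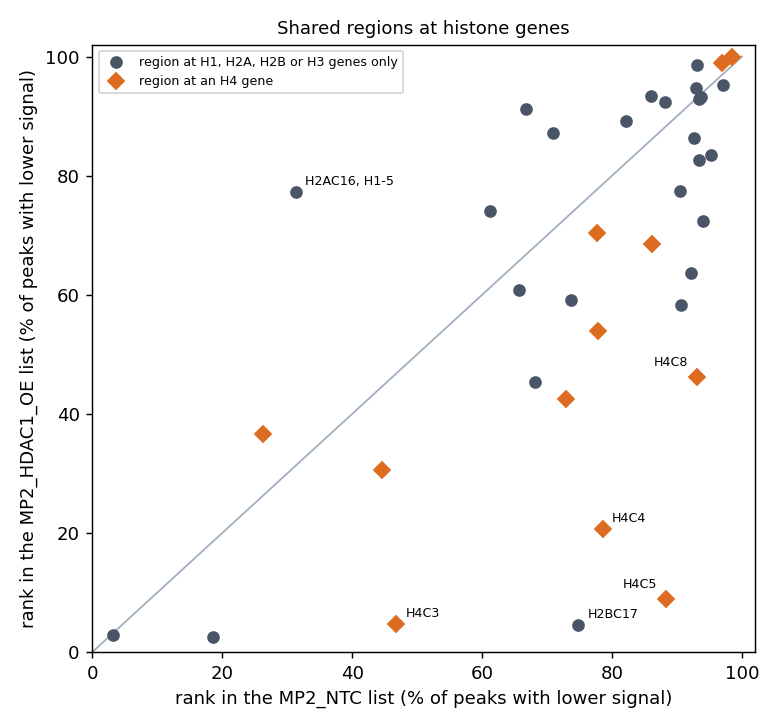
Rank of the 37 shared regions at histone genes in the MP2_NTC list (x axis) and the MP2_HDAC1_OE list (y axis), each as the percent of peaks in that list with a lower signal. Diamonds are regions at an H4 gene, the line marks equal ranks, regions over 40 rank points apart are named, and 25 of 37 regions lie below the line.

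The linker histone genes were the smallest group. H1 proteins bind the DNA between nucleosomes. Peaks stood at 3 of 6 H1 genes in MP2_HDAC1_OE and 4 of 6 in MP2_NTC. Of all protein-coding genes 47.9% and 47.0% had one. The H1 intervals are wide (18.8 to 81.2 in MP2_HDAC1_OE), and the H1 shares were not tested against these. *H1-2* had its strongest peak at rank 95.3 in MP2_HDAC1_OE (signal 96.6) and rank 97.1 in MP2_NTC (signal 118). Those summits lay 1789 and 1753 bp downstream of the annotated start, beyond the far end of the gene. Upstream of the start, shared regions had ranks 2.51 and 18.6 (chr6:26056556-26057064) and 87.2 and 70.9 (chr6:26057086-26057497). A region on the gene was unique to MP2_NTC (rank 45.0), and one farther upstream was unique to MP2_HDAC1_OE (rank 21.9). *H1-4* had rank 77.9 and 75.7, from regions that each belonged to 1 list. *H1-5* had rank 77.3 and 68.1, the latter from a region unique to MP2_NTC, and its shared region had ranks 77.3 and 31.4. *H1-3* had 3 MP2_NTC peaks, the strongest at rank 78.5 (signal 71.6), and none in MP2_HDAC1_OE. The peaks of *H1-3* formed 1 region (chr6:26234366-26235829) that covered the annotated start. *H1-1* and *H1-6*, of which the latter encodes the testis linker histone H1T, had no peak within 2 kb.

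Peaks were most frequent at the H2A genes. Both lists had peaks at 14 of 17 H2A genes, which encode one partner of the H2A–H2B dimer. The interval of this share was 59.0 to 93.8, beside 47.9% and 47.0% of all protein-coding genes. Neighbours share peaks, and the difference was not tested. The strongest peaks of these H2A genes had a median rank of 91.7 in MP2_HDAC1_OE and 91.4 in MP2_NTC, with 6 of 14 lower in MP2_HDAC1_OE. *H2AC12* ranked highest in MP2_HDAC1_OE (98.5, against 93.1 in MP2_NTC) and *H2AC13* ranked highest in MP2_NTC (95.9, against 95.7). *H2AC15* followed in MP2_NTC (93.7, against 93.2). *H2AC20* and *H2AC21* on chromosome 1 shared a peak at rank 94.7 and 92.9. *H2AC17* had the widest gap, with rank 58.2 in MP2_HDAC1_OE and 90.6 in MP2_NTC, from peaks that did not overlap but lay in the same shared region.

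The H2B genes had peaks at 14 of 19 genes in MP2_HDAC1_OE and 15 of 19 in MP2_NTC. The intervals were 51.2 to 88.2 and 56.7 to 91.5, beside 47.9% and 47.0% of all protein-coding genes. Here too the difference was not tested. The median rank of the H2B genes was 86.2 and 92.2, and 9 of 14 were lower in MP2_HDAC1_OE. *H2BC12* ranked highest in MP2_HDAC1_OE (98.5, against 93.1 in MP2_NTC). *H2BC13* came next there (95.7) and was highest in MP2_NTC (95.9), where *H2BC3* followed (95.2, against 83.4 in MP2_HDAC1_OE). *H2BC6* had 3 peaks in MP2_NTC, the strongest at rank 31.7 (signal 39.7), and none in MP2_HDAC1_OE within 2 kb. *H2BC4*, *H2BC5*, *H2BC12* and *H2BC18* have long gene models (8.57 kb to 29.7 kb), so their windows reach beyond the part that encodes the histone. The strongest MP2_NTC peak of *H2BC5*, at rank 93.9, had its summit 14618 bp downstream of the annotated start.

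The H3 and H4 genes encode the tetramer at the core of the nucleosome. H3 genes had peaks at 9 of 13 genes in each list, with a median rank of 83.4 in MP2_HDAC1_OE and 86.0 in MP2_NTC. The interval of this share was 42.4 to 87.3, beside 47.9% and 47.0% of all protein-coding genes, and the difference was not tested. *H3C1* and *H4C1* shared the strongest peak of the family, at rank 99.9 in MP2_HDAC1_OE (signal 159) and 98.4 in MP2_NTC (signal 128). Next among H3 genes were *H3C4* in MP2_HDAC1_OE (93.4, against 86.0 in MP2_NTC) and *H3C10* in MP2_NTC (95.9, against 92.8 in MP2_HDAC1_OE). The gene model of *H3C4* (2.51 kb) has the same annotated start as *H2AC7*. The strongest peaks of *H3C4* lay upstream of that start, in the region shared with *H2AC7* and *H2BC7*. At the other end of *H3C4*, a region unique to MP2_HDAC1_OE had rank 66.0 and one unique to MP2_NTC had rank 35.6. The 95.9 of *H3C10* came from a region unique to MP2_NTC, and its shared region had rank 92.8 in MP2_HDAC1_OE and 93.3 in MP2_NTC. *H3C6* was among the lowest, at rank 2.94 and 32.9, and *H3C12* had rank 47.6 and 39.5. For *H3C6* the MP2_NTC value came from a region unique to MP2_NTC, and its shared region had ranks 2.94 and 3.16. For *H3C12* the values came from regions that each belonged to 1 list.

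H4 genes had peaks at 9 of 15 genes in MP2_HDAC1_OE and 10 of 15 in MP2_NTC, and their median rank was 53.9 and 78.2. The intervals of these shares were 35.7 to 80.2 and 41.7 to 84.8, beside 47.9% and 47.0% of all protein-coding genes. The difference was not tested. The rank difference was below 0 at 6 of 9 H4 genes, with a median of −19.7. *H4C3* had the widest gap of any member by strongest peak, with rank 59.1 (signal 54.8) in MP2_NTC and 4.71 (signal 15.7) in MP2_HDAC1_OE. These were different peaks, and that of MP2_NTC was in a region unique to its list. The shared region of *H4C3* had rank 46.8 in MP2_NTC and 4.71 in MP2_HDAC1_OE. *H4C8*, whose promoter is printed above, had rank 93.1 (signal 98.2) in MP2_NTC and 46.2 (signal 44.5) in MP2_HDAC1_OE. These strongest peaks did not overlap and lay on opposite sides of the annotated start, within a single shared region. *H4C13*, in a region shared with *H3C11*, had rank 72.9 and 42.5. *H4C12* had a peak in MP2_NTC alone, at rank 74.9, whose near edge was 1.28 kb from the gene. *H4C11* went the other way, with rank 36.6 in MP2_HDAC1_OE and 26.2 in MP2_NTC, both in the lower part of their lists. *H4C16*, alone on chromosome 12, had rank 98.9 and 96.9.

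**Figure D4:**
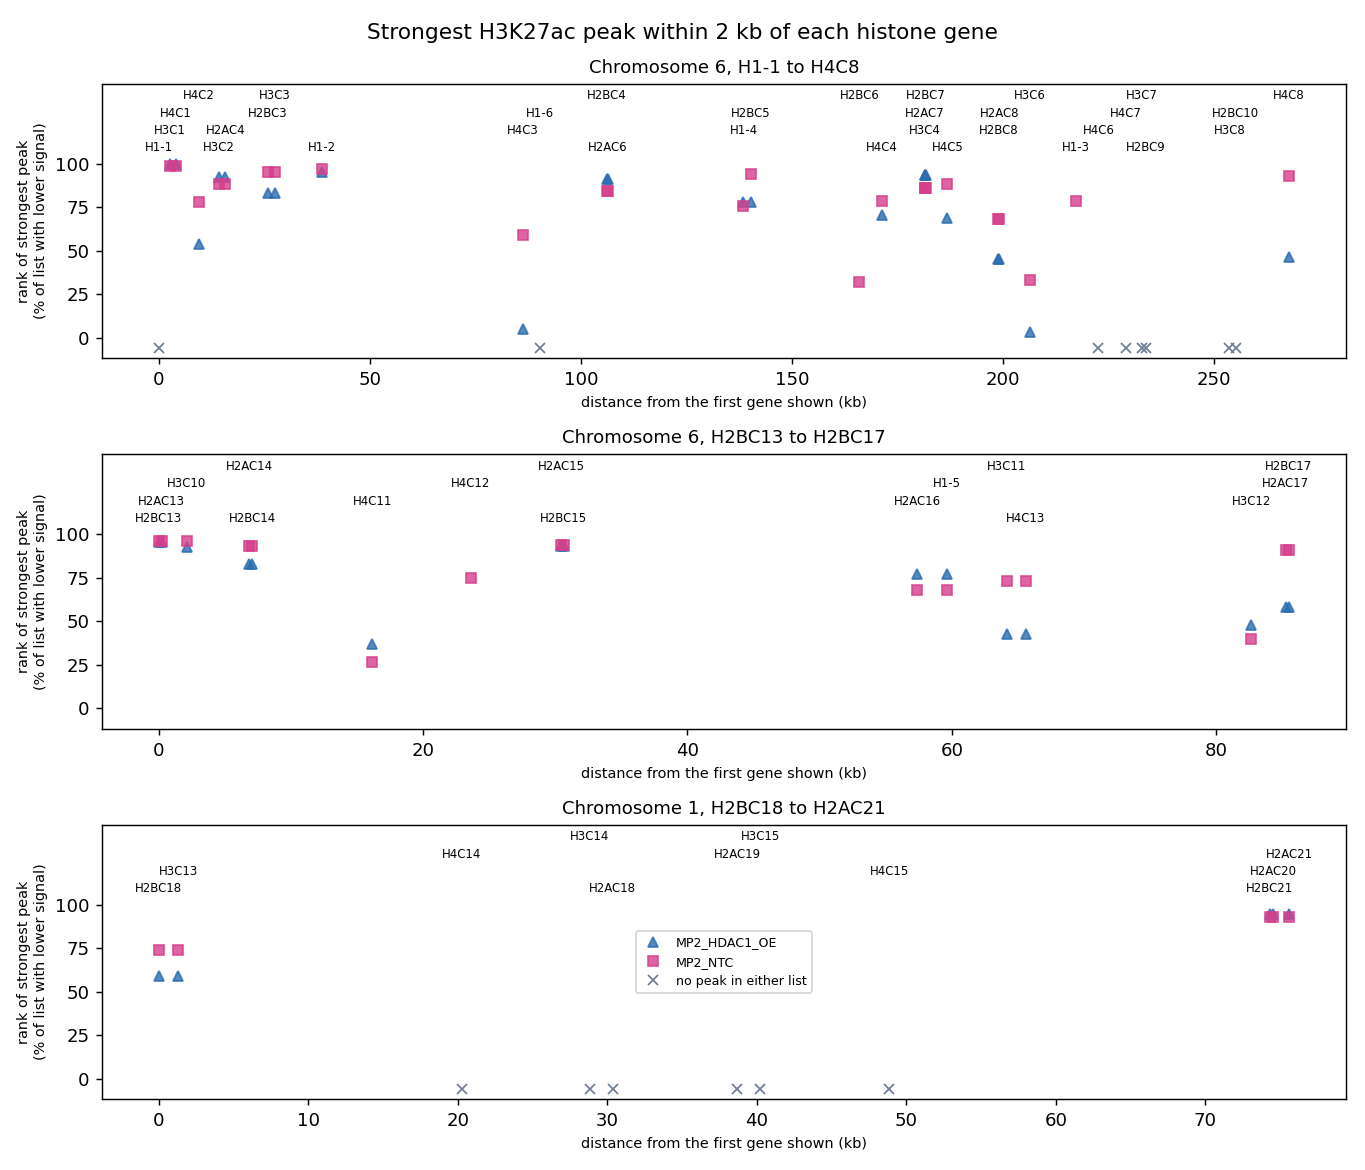
Rank of the strongest H3K27ac peak within 2 kb of each gene (y axis, percent of peaks in the list with a lower signal) against distance in kb from the first gene shown (x axis), for MP2_HDAC1_OE (triangles) and MP2_NTC (squares), with crosses for genes without a peak. Genes are drawn at their annotated start, or at their middle where no start was known, and the panels leave out *H2AC1*, *H2BC1* and the 5 genes from *H2BC11* to *H2AC12*. Runs of 6 neighbouring genes without a peak are seen in the top and bottom panels.

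The number of genes with a peak was counted by cluster. In the larger chromosome 6 cluster 24 of 34 genes had a peak in either list (70.6%, interval 53.8 to 83.2). In the second it was 20 of 21 (95.2%, interval 77.3 to 99.2), and in the chromosome 1 cluster 5 of 11 (45.5%, interval 21.3 to 72.0). Of all protein-coding genes 53.2% had a peak in either list, and of those up to 2 kb long 20.0%. The cluster shares were not tested against these. Regions unique to MP2_NTC lay at 13 of 34, 17 of 21 and 2 of 11 genes, against 14.8% of all genes. Regions unique to MP2_HDAC1_OE lay at 8 of 34, 7 of 21 and 0 of 11, against 16.8% of all genes. From *H2BC13* to *H2BC17*, within the second chromosome 6 cluster, 15 of 16 genes had a region unique to MP2_NTC and 7 of 16 a region unique to MP2_HDAC1_OE. By distinct regions, the second chromosome 6 cluster had 13 shared regions, 3 unique to MP2_HDAC1_OE and 13 unique to MP2_NTC. The larger chromosome 6 cluster had 18, 7 and 13, and the chromosome 1 cluster 4, 0 and 1. The median rank in MP2_HDAC1_OE and MP2_NTC was 83.4 and 86.0 in the larger chromosome 6 cluster and 77.3 and 92.2 in the second. In the chromosome 1 cluster it was 94.7 and 92.9, over 5 genes that rest on 2 groups of neighbours.

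The chromosome 1 genes without a peak all had near-identical promoter copies. They are *H4C14*, *H3C14*, *H2AC18*, *H4C15*, *H2AC19* and *H3C15*, which lie next to each other, and their nearest MP2_HDAC1_OE peak was 18.7 kb away or more, and their nearest MP2_NTC peak 19.3 kb or more. Reads were 75 bases long, so the runs of 75 letters in each RefSeq promoter entry were compared with those of all other entries, on both strands. *H4C14* and *H4C15* shared 100% of them with each other, *H2AC18* and *H2AC19* 99.6%, and *H3C14* and *H3C15* 98.2%. The other 7 family promoters with any shared run, *H3C13*, *H2BC13*, *H2AC13*, *H2AC14*, *H2BC14*, *H4C11* and *H4C12*, shared 8.41% to 23.0%, and all had a peak in at least 1 list. How the authors treated reads with more than 1 place in the genome is not given in the sources used here. Its part in the absence of peaks at these 6 genes was not tested. The other 5 genes of the chromosome 1 cluster all had peaks in both lists.

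The other run without peaks lies on chromosome 6 and had no such copies among the promoter entries. It holds *H4C6*, *H4C7*, *H3C7*, *H2BC9*, *H3C8* and *H2BC10*, spans 33.0 kb (chr6:26240393-26273412), and its promoters shared 0 runs of 75 letters with another promoter. The nearest peak was 12.3 kb away in MP2_HDAC1_OE and 4.56 kb away in MP2_NTC, the latter at rank 8.71. *H1-3* and *H4C8* flank the run. The *H2BC9* promoter printed above holds an octamer and CCAAT boxes. Every promoter of an H2B gene with a peak held a CCAAT box, but those of *H2BC5*, *H2BC13*, *H2BC15* and *H2BC26* held no octamer. A part of these motifs in the absence of peaks was not tested.

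The other 6 genes without a peak stood singly or as a pair. *H2AC1* and *H2BC1*, which encode histones of testis and lie apart from the rest of the cluster, were 235 kb or more from the nearest peak. *H2BC12L* was 93.5 kb from a peak. *H4C9*, inside the long gene model of *H2BC12*, was 5.30 kb from an MP2_HDAC1_OE peak. *H1-1* and *H1-6* were just outside the window. *H1-1* was 2.58 kb from the MP2_HDAC1_OE peak and 2.65 kb from the MP2_NTC peak of *H3C1* and *H4C1*, the strongest of the family. *H1-6* was 2.50 kb from a peak with rank 4.71 in MP2_HDAC1_OE and 46.8 in MP2_NTC. Inside the window, the genes farthest from their nearest peak were *H4C12* in MP2_NTC (1.28 kb) and *H3C6* in MP2_HDAC1_OE (0.832 kb).

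The summits lay beside the histone gene starts and seldom on them. Among summits within 2 kb of the nearest annotated start, 10 of 76 (13.2%) in MP2_HDAC1_OE and 10 of 106 (9.43%) in MP2_NTC were within 250 bp of a histone gene start. At other protein-coding genes these shares were 36.7% and 35.6%. Summits between 250 and 1000 bp downstream made up 48.7% and 47.2% at histone genes, against 32.9% and 34.6% elsewhere.

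**Figure D5:**
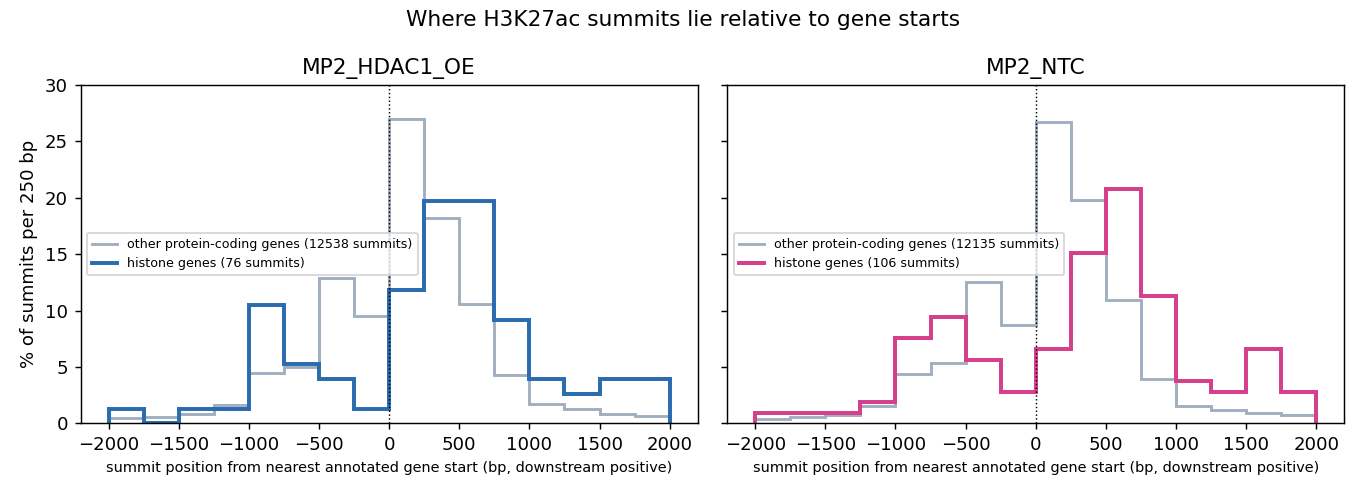
Percent of H3K27ac summits per 250 bp (y axis) by position in bp from the nearest annotated gene start (x axis, downstream positive), for histone genes (coloured) and other protein-coding genes (grey) in each list. Within 250 bp of the start lie 13.2% (MP2_HDAC1_OE) and 9.43% (MP2_NTC) of the histone summits, against 36.7% and 35.6% at other genes.

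The head-to-head pairs were looked at for the same gap. Only genes with a promoter entry were used, which left out *H2AC12*, the neighbour of *H2BC12*. There were 11 such pairs of an H2A and an H2B gene, with starts 194 to 248 bp apart (median 236). Peaks of each list were present at 10 of them. Of 35 MP2_HDAC1_OE peaks and 40 MP2_NTC peaks at these pairs, 0 had their summit between the starts. That stretch is a small part of the window around a pair, so few summits would lie there even if spread evenly. The strongest peak lay on the same side of the pair in both lists at 7 of 10 pairs. At *H2BC13* and *H2AC13* it lay on the *H2BC13* side in MP2_HDAC1_OE (chr6:27807173-27807648, rank 95.7) and on the *H2AC13* side in MP2_NTC (chr6:27808479-27809005, rank 95.9), each in a region unique to that list. A shared region farther out on the *H2AC13* side had rank 92.8 in MP2_HDAC1_OE and 93.3 in MP2_NTC. At *H2BC11* and *H2AC11* both sides held a shared region, and the lists differed in which ranked first. The region on the *H2BC11* side had rank 74.0 in MP2_HDAC1_OE and 61.2 in MP2_NTC. That on the *H2AC11* side had 63.7 and 92.2. *H2AC25* and *H2BC26* are the pair on chromosome 1 outside the cluster. Their strongest peak had rank 89.1 on the *H2BC26* side in MP2_HDAC1_OE and 88.0 on the *H2AC25* side in MP2_NTC. The region on the *H2BC26* side was shared, with rank 82.1 in MP2_NTC.

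The genes around and beside the family were read in the same way. Factors that transcribe or process histone RNA had peaks at 18 of 20 genes in MP2_HDAC1_OE and 16 of 20 in MP2_NTC. Over all protein-coding genes these shares were 47.9% and 47.0%. The 16 factors with both had a median difference of 2.84, with 8 below 0. *NPAT* had rank 97.9 in MP2_HDAC1_OE and 68.8 in MP2_NTC. *CASP8AP2*, which encodes the histone locus body protein FLASH, had 47.9 and 71.2, and *SLBP* had 47.3 and 66.4. *HINFP*, which encodes the factor of the H4 site II, had a peak in MP2_HDAC1_OE alone (rank 64.7), as did *E2F1* (76.5). *ERI1* and *CCNE2* had none. Of 11 replication-independent histone genes, whose products replace histones outside S phase, 8 had a peak in MP2_HDAC1_OE and 9 in MP2_NTC, beside the same 47.9% and 47.0%. *CENPA* (rank 70.6) and *MACROH2A2* (47.1) had a peak in MP2_NTC alone and *MACROH2A1* (83.4) in MP2_HDAC1_OE alone. Of all protein-coding genes 5.30% had a peak in MP2_NTC alone and 6.21% in MP2_HDAC1_OE alone. *H3-5* had no peak. The 7 with both had a median difference of 0.824, with 3 below 0.

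Coding genes of other families also lie inside the clusters. In the span of the larger chromosome 6 cluster 2 of 5 had peaks in both lists, *TRIM38* at rank 90.3 in MP2_HDAC1_OE and 76.3 in MP2_NTC and *HFE* at 41.2 and 70.0. In the span of the second, 3 of 5 had a peak in MP2_HDAC1_OE and 2 of 5 in MP2_NTC. *ZNF184* had rank 97.4 in MP2_HDAC1_OE and no MP2_NTC peak, *ZNF391* had 92.6 and 78.1, and *PRSS16* had 85.0 and 59.6. In the chromosome 1 span 0 of 2 had a peak. Of all protein-coding genes 47.9% had an MP2_HDAC1_OE peak and 47.0% an MP2_NTC peak.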

How the data were processed

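H3K27ac ChIP-sequencing with 75 bp single-end reads was processed by the authors with the ENCODE pipeline. The labels name BWA 0.7.12, Picard 1.88 and hg38 in the submitters' processing notes, and the peak caller is not given in the sources used here. The deposited lists are the reproducible (IDR optimal) peaks, 1 per line over both samples. The authors' signal value per peak has unknown scaling between lists and was used for ranks within a list. The deposited score per peak, scaled from IDR by the authors' pipeline, was not used for any result. Reads and controls made without antibody were not used here. The lists hold no read counts, so depth and its effect on precision are unknown.

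Samples were grouped by line from the labels. Peaks overlapping a gene or the 2 kb on either side were counted. Peaks of both lists sharing 1 bp were merged into regions. Gene positions and promoters came from RefSeq (GRCh38.p14). Shares have 95% Wilson intervals, and no test was run since each line has 1 list. The alternatives were windows of 0, 1 and 5 kb, summits in the window, a stricter threshold (the top 75% of each list by signal), lists of equal length, a 50% overlap, the peak nearest to the start and the 3 clusters alone.

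The family, the gene lists and the motifs were chosen with earlier results of these data known. Genes were named by rule: the 2 members per family with the highest rank in each list, members with a peak in 1 list alone, the 5 widest rank differences each way (by gene or by region), members with a peak within 5 kb alone, factors fixed by name or with a peak in 1 list alone, and the 3 highest-ranked neighbours per span. Other members were named after their values were seen. One gene of the replication-independent list is not reported here. The counting was tested on simulated data. Python 3.11.15, numpy 2.4.6, pandas 2.3.3 and matplotlib 3.10.9 were used.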

Additional observations from a re-analysis of the deposited data

How the results depend on the processing

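The alternatives were run for 18 results and gave 129 values, of which 113 stayed within 1.5 times the count reported or within the order-statistic interval of the median. No paired analysis was possible because the lists do not separate the samples of a line, and leaving out a replicate was not possible for the same reason. The counts of distinct peaks and regions, and the window of 0 kb, were added after seeing the data. With a window of 0 kb, which takes the gene alone, 26 genes had an MP2_HDAC1_OE peak, 34 an MP2_NTC peak and 20 had both. Then 6 genes had a region unique to MP2_HDAC1_OE, 13 a region unique to MP2_NTC and 24 a shared region, with 48 and 63 distinct peaks, and 6, 13 and 23 distinct regions of these kinds. The median rank of the strongest MP2_NTC peak was 82.5, and the median difference by gene turned to 0.536. That by shared region was −0.468, and under the other alternatives it was −6.18 to −10.7. With a 50% overlap of both peaks 31 genes had a peak unique to MP2_HDAC1_OE and 45 a peak unique to MP2_NTC. With the peak nearest to the start, the median ranks were 55.7 in MP2_HDAC1_OE and 68.2 in MP2_NTC. For these changes the cause was not tested, beyond the narrower window or stricter overlap itself. Depth limits both absences and ranks, since a region unique to a list may hold signal in the other line below the threshold of its list.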

Other observations

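Pseudogenes of the histone families were read in the same way as the genes. Of 14 with a family symbol, 6 had an MP2_HDAC1_OE peak and 7 an MP2_NTC peak within 2 kb. These counts are near the shares of all protein-coding genes, 47.9% and 47.0%. The median rank over the pseudogenes with a peak was 62.4 in MP2_HDAC1_OE and 78.5 in MP2_NTC. The rank was lower in MP2_HDAC1_OE at 5 of the 6 with both. They lie among the coding genes and share peaks with them, so this is not separate from the values of the coding genes.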
